A study of Ambystoma mexicanum with 17 samples.

Results

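The gene expression of posterior limb blastemas that grew in the presence of the MEK inhibitor U0126 was set against that of uninjured limb in the axolotl. The 8 libraries were taken by their labels, 5 of inhibitor-treated posterior blastemas and 3 of uninjured limb, of 17 libraries in the series. All animals were of the d/d genotype, which is white, and all tissue came from the forelimb. The inhibitor-treated blastemas had received 25 uM U0126 and were collected on day 10 after injury with nerve deviation, with the wound epithelium left on. For the uninjured limb the labels give no treatment and no day. The 4 posterior blastemas without the inhibitor, grown and collected in the same way, were used to ask whether a difference from uninjured limb also depended on the inhibitor. Holtfreter's solution and DMSO appear in 1 treatment text that every library shares, and which of them the untreated tissue received is not given there.

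A blastema is the mound of progenitor cells, covered by a wound epithelium, from which salamanders regrow a limb. In the accessory limb model a nerve led to a skin wound starts such a mound without amputation. U0126 blocks MEK, the kinase that activates ERK, and ERK in turn switches on immediate early transcription factors, ETS factors, and its own feedback inhibitors of the dual-specificity phosphatase and Sprouty families.

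The 8 libraries held 38251836 to 48788912 counts in genes, and 14.9% to 16.4% of their reads were not counted in any gene. Levels are given as CPM, the reads of a gene per 1000000 reads of the scaled library total, always in the order of the replicate numbers. Nothing in the labels ties the libraries of a group to different animals, and p-values therefore measure no more than the spread between libraries. Unless stated otherwise, that spread was shared by all 4 groups of the series, 17 libraries or 15 in the reduced fit below. The 4 posterior and 5 anterior blastemas without the inhibitor were among them. In whole tissue, fewer cells of a type and less RNA per cell cannot be told apart, and without strand the reads of overlapping genes cannot be separated. Epidermal markers were present in all 8 libraries, with the adhesion gene CDH1 at 477 to 782 CPM. Skeletal muscle transcripts varied from library to library, the list of muscle genes summing to 1160, 4798, 18282, 2053 and 4454 CPM in inhibitor replicates 1 to 5 and to 1663, 18063 and 40855 CPM in uninjured replicates 1 to 3.

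In each group 1 library stood apart. Over 3098 genes that differed between the posterior blastemas and uninjured replicates 2 and 3, inhibitor replicates 1 to 4 were nearer to the posterior blastemas at 60.6%, 72.3%, 69.6% and 88.1% of the genes, and the library labelled inhibitor replicate 5 at 27.5%. The library labelled uninjured replicate 1 was nearer to the posterior blastemas at 74.2% of these genes. Over 2564 genes that differed between inhibitor replicates 1 to 4 and the posterior blastemas, that library was nearer to the inhibitor-treated blastemas at 89.5%. Inhibitor replicates 1 to 4, which had served to choose these genes, were nearer to their own group at 96.9%, 97.1%, 97.9% and 77.4%. Inhibitor replicate 4 thus also differed from replicates 1 to 3, and it was kept. The library labelled inhibitor replicate 5 was placed less clearly over those genes, nearer to the inhibitor-treated blastemas at 54.6% of them, against 51.0% and 37.3% in uninjured replicates 2 and 3. Most results below are given for the libraries as labelled and again without both, 4 inhibitor libraries against 2 uninjured ones. Some single genes, KCNT1 and PEA15 among them, are given in only 1 of these ways. The 2 libraries were left out because of their values, so p-values without them are too small, and the uninjured level then rests on replicates 2 and 3.

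**Figure D1:**
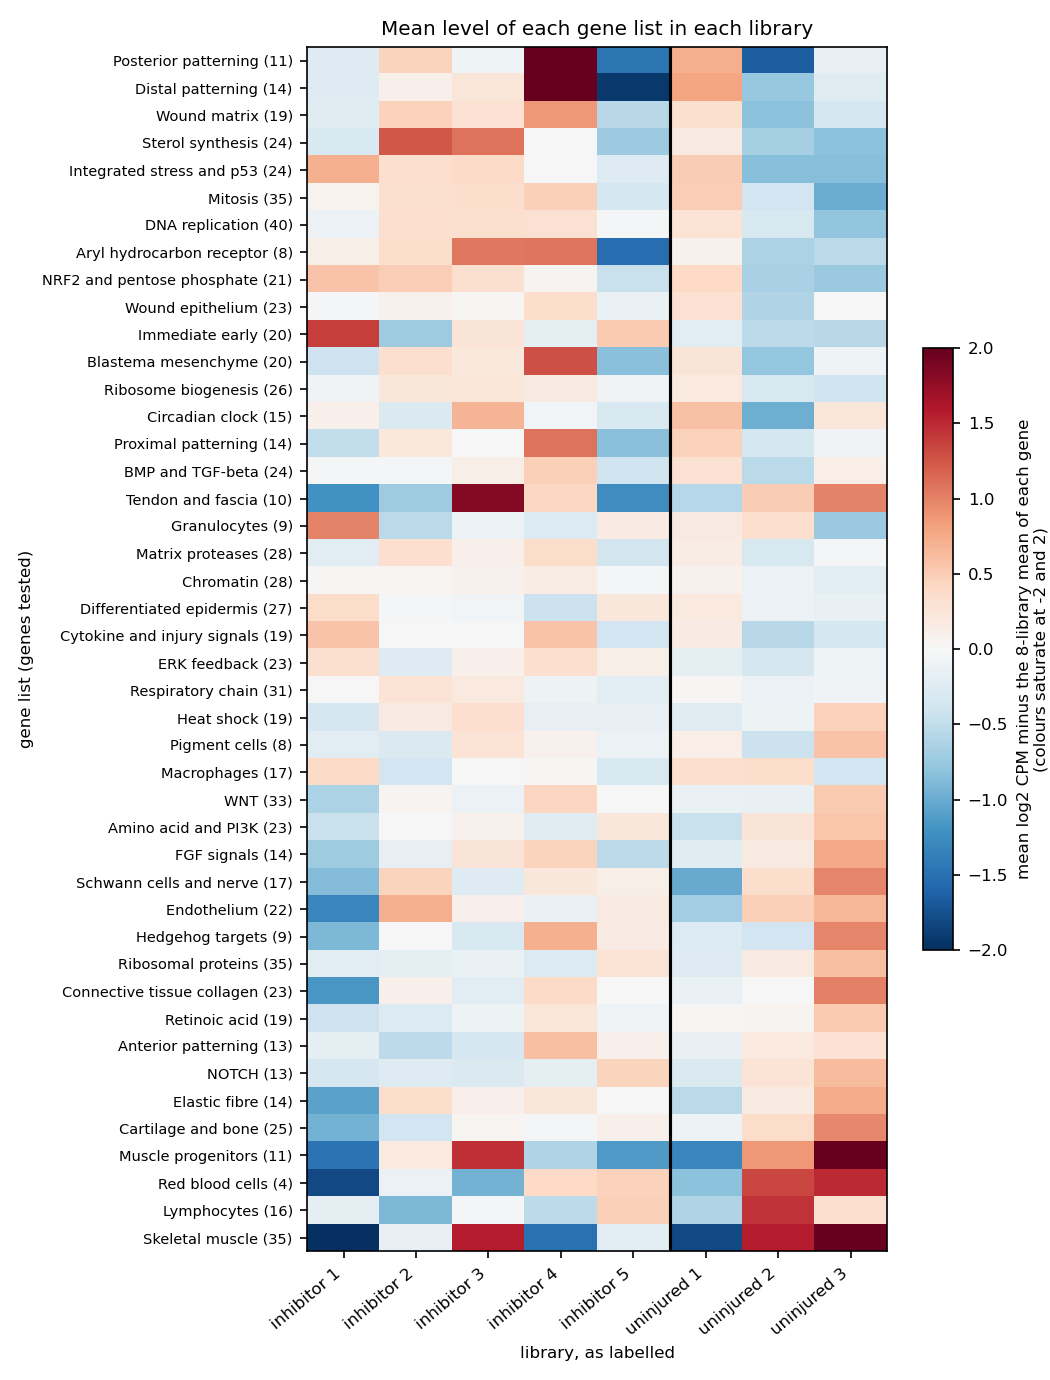
Mean level of 44 gene lists (rows, with the number of genes tested) in the 8 libraries (columns), as mean log2 CPM of the list after each gene's mean over the 8 libraries was subtracted; red is above and blue below that mean. The library labelled inhibitor replicate 5 and the library labelled uninjured replicate 1 stand side by side in the middle, and many rows change colour between them against the direction of the other libraries of their groups.

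With the libraries as labelled, no gene passed the test. Of 19398 genes tested, edgeR's quasi-likelihood test called 0 (0%) at a Benjamini-Hochberg adjusted p under 0.05, and none of the 44 lists had a called member. Before adjustment 1888 genes had a p under 0.05, 840 higher and 1048 lower in the inhibitor-treated blastemas. DESeq2 called 34 genes on the same libraries, 16 higher and 18 lower. The smallest edgeR p belonged to KCNT1, a sodium-activated potassium channel gene chosen here after its values were seen. KCNT1 was at 0.0703, 0.337, 0.456, 0.293 and 0.334 CPM in the inhibitor libraries, against 0.819, 3.44 and 3.08 CPM in the uninjured libraries. No inhibitor library reached the lowest uninjured one. The log2 fold change of KCNT1 was −3.02 ± 0.50 (SE), adjusted p = 0.387 by edgeR and −3.04 with an adjusted p of 4.31e-05 by DESeq2. Leaving out the library labelled uninjured replicate 1 raised the edgeR count to 1714 genes, 1162 higher and 552 lower. Leaving out the library labelled inhibitor replicate 5 alone gave 1 gene, LOC138570211, at a log2 fold change of −1.06 and an adjusted p of 0.0354.

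At 457 genes (2.36%) the 5 inhibitor libraries and the 3 uninjured libraries did not overlap, 260 with the inhibitor libraries above (1.34%) and 197 with them below (1.02%). FOSL1 and PTGS2 were among them, picked after their values were seen. Lack of overlap was the rule for taking these genes, so it adds no support for a change. Chance alone can separate a share of genes of this size in groups of 5 and 3 libraries. The 457 genes are therefore not read as changed. FOSL1, an AP-1 transcription factor gene of the immediate early class, was at 14.8, 5.52, 4.36, 2.37 and 7.02 CPM in the inhibitor libraries, against 1.35, 1.14 and 0.900 CPM in the uninjured libraries. PTGS2, which encodes the inducible cyclooxygenase of inflammation, was at 209, 97.03, 158, 108 and 123 CPM with the inhibitor and 75.4, 27.7 and 63.7 CPM in uninjured limb. In both genes even the library labelled inhibitor replicate 5 lay above all uninjured libraries, yet the adjusted p was 0.506 for FOSL1 and 0.506 for PTGS2. Without both libraries edgeR called neither gene. Its log2 fold change was then 2.72 with an adjusted p of 0.119 for FOSL1, and 1.65 with an adjusted p of 0.0933 for PTGS2. DESeq2 called both, at an adjusted p of 0.0196 for FOSL1 and 0.0294 for PTGS2. On the lower side stood ALDH1A3 and CYP26B1, genes of retinoic acid handling that were also taken from the genes without overlap. ALDH1A3, an enzyme that makes retinoic acid, was at 3.19, 11.7, 14.5, 12.7 and 22.1 CPM in the inhibitor libraries, against 23.1, 29.7 and 34.6 CPM in the uninjured libraries. CYP26B1, which breaks retinoic acid down, was at 172, 114, 318, 308 and 250.2 CPM with the inhibitor and 599.8, 459.6 and 676 CPM in uninjured limb. Neither passed the test as labelled, with an adjusted p of 0.506 and 0.506, and without both libraries ALDH1A3 was called lower at a log2 fold change of −1.61 ± 0.51 (SE), adjusted p = 0.0399 while CYP26B1 was not called, at −1.31 ± 0.67 (SE), adjusted p = 0.181. Leaving out uninjured replicate 3 ended calls, with an adjusted p of 0.206 for ALDH1A3. For ALDH1A3 it was also 0.0891 without uninjured replicate 2, 0.0537 without inhibitor replicate 4 and 0.0664 without inhibitor replicate 2.

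Without both libraries the comparison gave 4344 called genes of 19779 (22%), 2447 higher (12.4%) and 1897 lower (9.59%) in inhibitor-treated blastemas. The 4 inhibitor libraries and the 2 uninjured libraries did not overlap at 41.8% of the genes. Groups this small separate at many genes by chance alone, so this share does not count changed genes. The count depended on the fit and on the libraries. It was 857 when only these 2 groups set the spread, and 787 without uninjured replicate 3. Scaling by total counts in place of TMM moved the median log2 fold change of all genes to 0.15, against 0.01 with TMM, and gave 2980 higher and 1341 lower genes, so that 69.0% of the calls were higher in place of 56.3%. Of 53 genes called among those described below, 28 were still called without uninjured replicate 3, 40 without uninjured replicate 2 and 29 with only the groups compared. All 53 kept their sign in each of these. Unless stated otherwise, fold changes below are those without both libraries, as log2 with the SE and edgeR's adjusted p.

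**Figure D2:**
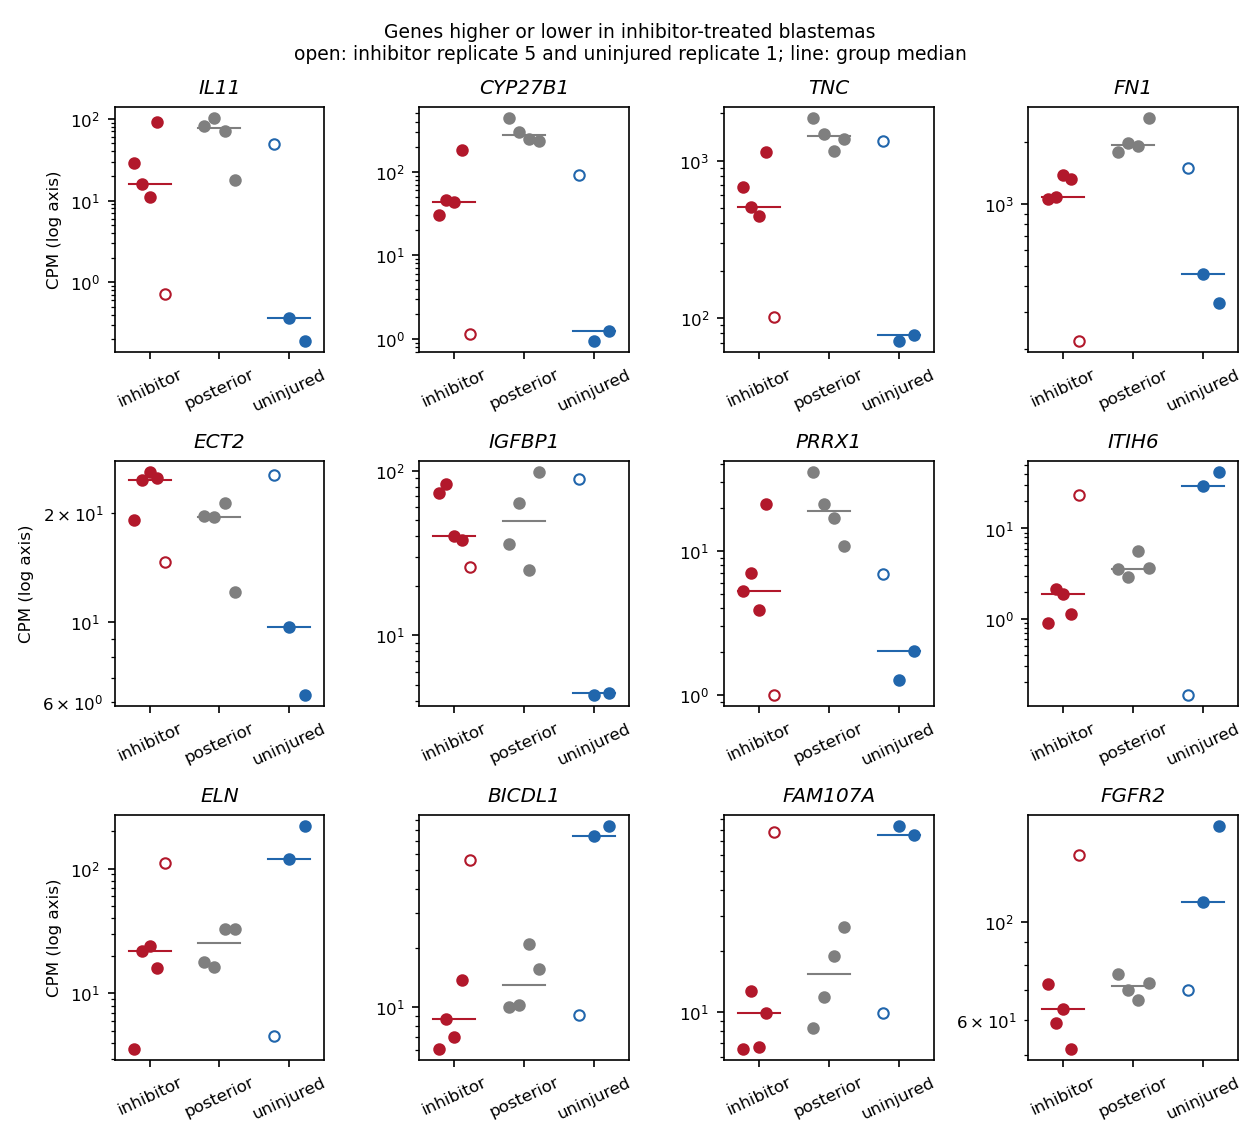
CPM on a log axis of 12 genes in every library of the inhibitor-treated blastemas (red), posterior blastemas (grey) and uninjured limb (blue), with the group median as a line. Open circles mark the libraries labelled inhibitor replicate 5 and uninjured replicate 1, which in IL11, CYP27B1, TNC, ITIH6 and BICDL1 lie with the opposite group.

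IL11, CYP27B1, SHD and IGFBP1 rose above uninjured limb. IL11, a cytokine of the interleukin-6 family, was at 29.2, 15.8, 10.98, 92.4 and 0.720 CPM in the inhibitor libraries, against 49.4, 0.371 and 0.191 CPM in the uninjured libraries. It was high in 4 inhibitor libraries and in the library labelled uninjured replicate 1, and the groups as labelled overlapped. The log2 fold change of IL11 was 7.02 ± 1.51 (SE), adjusted p = 0.00672. CYP27B1, which activates vitamin D, was at 30.8, 45.3, 43.2, 179.97 and 1.16 CPM with the inhibitor and 91.8, 0.939 and 1.25 CPM in uninjured limb, with a log2 fold change of 6.09 ± 0.998 (SE), adjusted p = 0.0019. SHD, an SH2-domain adaptor gene, was at 18.5, 11.7, 8.05, 41.7 and 0.309 CPM with the inhibitor and 33.9, 0.272 and 0.355 CPM in uninjured limb, with a log2 fold change of 5.99 ± 0.83 (SE), adjusted p = 0.00089. In all 3 genes the library labelled inhibitor replicate 5 lay with uninjured replicates 2 and 3, and the library labelled uninjured replicate 1 with the other inhibitor libraries. IGFBP1, a secreted binding protein of insulin-like growth factors, differed in that its level in the library labelled inhibitor replicate 5 was intermediate. It was at 73.001, 83.3, 40.2, 37.9 and 25.8 CPM in the inhibitor libraries, against 88.6, 4.33 and 4.45 CPM in the uninjured libraries, and its log2 fold change was 3.74 ± 0.58 (SE), adjusted p = 0.00157.

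Of 20 genes tested in the list of cytokine and injury signals, 4 rose (IL11, SHD, LEP and SOCS3) and 2 fell (OSMR and CXCL12). That was 30% called, against 22% of all genes, and the median log2 fold change was 0.10. SOCS3, the feedback inhibitor of interleukin-6 family receptors, was at 97.2, 26.3, 56.1, 48.9 and 24.5 CPM in the inhibitor libraries, against 35.7, 16.3 and 10.9 CPM in the uninjured libraries. Its log2 fold change was 2.07 ± 0.53 (SE), adjusted p = 0.016. CXCL12, a chemokine of connective tissue and vessels, lay on the other side, at 1.12, 2.57, 3.95, 3.03 and 1.67 CPM with the inhibitor and 1.59, 11.1 and 12.8 CPM in uninjured limb, with a log2 fold change of −2.16 ± 0.58 (SE), adjusted p = 0.0182. In both genes the library labelled uninjured replicate 1 lay within the range of the inhibitor libraries. When uninjured replicate 3 was left out, 1 gene of the list rose and none fell. Over all 8 libraries the log2 fold changes were 0.84 for IL11, 0.94 for CYP27B1, 0.48 for SHD, 0.68 for IGFBP1, 1.27 for SOCS3 and −1.78 for CXCL12, with adjusted p of 0.506 to 0.89. Some calls were lost without uninjured replicate 3, where the adjusted p was 0.0983 for IL11, 0.172 for SOCS3 and 0.121 for CXCL12. The calls of CYP27B1, SHD and IGFBP1 did not depend on any 1 of the remaining libraries of the groups compared.

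Several matrix genes of wounds were higher. In the list of wound matrix genes 7 of 19 rose and 2 fell, with a median log2 fold change of 1.48, against 0.01 over all genes. That was 47.4% called, against 22% of all genes. TNC, the glycoprotein tenascin-C of regenerating tissue, was at 677, 508, 444, 1135 and 102 CPM in the inhibitor libraries, against 1329, 71.6 and 78.4 CPM in the uninjured libraries. The library labelled inhibitor replicate 5 lay just above uninjured replicates 2 and 3, and the library labelled uninjured replicate 1 was the highest of all 8. The log2 fold change of TNC was 3.21 ± 0.42 (SE), adjusted p = 0.000675. FN1, fibronectin, was at 1054, 1084, 1384, 1322 and 218 CPM with the inhibitor and 1493, 461 and 331 CPM in uninjured limb, with a log2 fold change of 1.61 ± 0.26 (SE), adjusted p = 0.00169. CCN1, a matricellular protein induced in wounds, was at 25.04, 33.5, 34.2, 68.8 and 5.50 CPM with the inhibitor and 28.1, 5.68 and 9.52 CPM in uninjured limb, with a log2 fold change of 2.42 ± 0.48 (SE), adjusted p = 0.00481. In FN1 and CCN1 the library labelled inhibitor replicate 5 was the lowest of the 8. SERPINH1, the collagen chaperone, went the other way within the same list, at 75.4, 101, 91.2, 113 and 196 CPM in the inhibitor libraries, against 125, 157 and 239 CPM in the uninjured libraries, with a log2 fold change of −1.05 ± 0.26 (SE), adjusted p = 0.0115.

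Among matrix proteases 7 of 28 rose and 2 fell (32.1% called, against 22% of all genes), with a median of 0.24. CTSK, a collagen-degrading cathepsin, was at 182, 367, 179, 405 and 174 CPM in the inhibitor libraries, against 219.8, 132 and 108 CPM in the uninjured libraries, with a log2 fold change of 1.24 ± 0.39 (SE), adjusted p = 0.038. PLAU, the urokinase plasminogen activator, was at 30.5, 21.4, 14.1, 23.2 and 56.7 CPM with the inhibitor and 23.8, 69.6 and 80.8 CPM in uninjured limb, and its log2 fold change was −1.75 ± 0.24 (SE), adjusted p = 0.000728. In the wound epithelium list 6 of 23 rose and 2 fell (34.8% called), with a median of 0.79. AREG, an epidermal growth factor receptor ligand, was at 19.3, 17.1, 13.2, 9.63 and 11.2 CPM with the inhibitor and 11.9, 5.31 and 5.02 CPM in uninjured limb, with a log2 fold change of 1.52 ± 0.51 (SE), adjusted p = 0.0492. CLDN1, a tight-junction protein of the epidermis, was at 50.2, 66.8, 44.9, 36.2 and 122 CPM with the inhibitor and 60.7, 104 and 131 CPM in uninjured limb, with a log2 fold change of −1.25 ± 0.29 (SE), adjusted p = 0.00958. In PLAU and CLDN1 the library labelled inhibitor replicate 5 was the highest of its group and the library labelled uninjured replicate 1 the lowest of its group.

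As labelled, the log2 fold changes of these matrix and epithelium genes were 0.22 for TNC, 0.41 for FN1, 1.21 for CCN1, −0.59 for SERPINH1, 0.77 for CTSK, −0.99 for PLAU, 0.92 for AREG and −0.63 for CLDN1, with adjusted p of 0.506 to 0.93. The fit without uninjured replicate 3 gave an adjusted p of 0.193 for SERPINH1, 0.247 for CTSK, 0.254 for AREG and 0.126 for CLDN1. For CTSK it was also 0.0912 without uninjured replicate 2, 0.0747 without inhibitor replicate 4 and 0.0794 without inhibitor replicate 2. For AREG it was also 0.144 without uninjured replicate 2, 0.0644 without inhibitor replicate 3, 0.0865 without inhibitor replicate 2 and 0.0849 without inhibitor replicate 1. The calls of TNC, FN1, CCN1 and PLAU did not depend on any 1 of the remaining libraries of the groups compared. In the same fit without uninjured replicate 3, 5 wound matrix genes, 2 proteases and 3 wound epithelium genes rose, and without uninjured replicate 2 the counts were 5, 4 and 2.

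Several collagens of connective tissue, and ELN, were lower in inhibitor-treated blastemas. ELN, the core protein of elastic fibres, was at 3.58, 21.8, 24.04, 15.8 and 111 CPM in the inhibitor libraries, against 4.58, 119 and 218 CPM in the uninjured libraries. COL14A1, a fibril-associated collagen of connective tissue, was at 3.58, 21.5, 10.7, 10.2 and 82.7 CPM with the inhibitor and 3.78, 77.95 and 125 CPM in uninjured limb. Both were low in 4 inhibitor libraries and in the library labelled uninjured replicate 1. The log2 fold change was −3.36 ± 0.59 (SE), adjusted p = 0.00247 for ELN and −3.14 ± 0.54 (SE), adjusted p = 0.00229 for COL14A1. ITIH6, an inter-alpha-trypsin inhibitor heavy chain gene, had the lowest log2 fold change of the named genes, −4.55 ± 0.50 (SE), adjusted p = 0.000402, at 0.913, 2.13, 1.87, 1.15 and 23.4 CPM with the inhibitor and 0.145, 29.5 and 41.9 CPM in uninjured limb. COL1A1, the main chain of type I collagen, was at 1331, 2987, 1448, 4061 and 5642 CPM in the inhibitor libraries, against 3250.1, 4754 and 6787 CPM in the uninjured libraries, with a log2 fold change of −1.23 ± 0.40 (SE), adjusted p = 0.0416. COL2A1, the cartilage collagen, was at 12.9, 33.8, 23.2, 61.5 and 4.45 CPM with the inhibitor and 47.5, 5.59 and 10.6 CPM in uninjured limb. Its log2 fold change, 2.03 ± 0.55 (SE), adjusted p = 0.0206, was opposite in sign to that of COL1A1. In the list of connective tissue collagens 6 of 23 fell and none rose, with a median of −0.64. They were 26.1% of the list, against 9.59% of all genes called lower and 22% called in either direction. The 6 became 1 without inhibitor replicate 3 or with only the groups compared. Leaving out either remaining uninjured replicate also lowered the count. The count was 2 without inhibitor replicate 1, with scaling by total counts or with a minimum of 1.2-fold. In the elastic fibre list ELN fell and EMILIN1, another elastic fibre glycoprotein gene, rose at a log2 fold change of 2.14 with an adjusted p of 0.018, and the other 12 of 14 genes were not called. Among cartilage and bone genes 1 of 25, COL2A1, rose and 5 fell. Of the elastic fibre list 14.3% was called, below the 22% of all genes, and of the cartilage and bone list 24%, near it. With the labels as given, the log2 fold changes were −1.70 for ELN, −1.42 for COL14A1, −2.02 for ITIH6, −0.67 for COL1A1 and 0.35 for COL2A1, with adjusted p of 0.524 to 0.848. In the absence of uninjured replicate 3 the adjusted p was 0.294 for COL1A1 and 0.0839 for COL2A1. For COL1A1 it was also 0.0602 without uninjured replicate 2, 0.083 without inhibitor replicate 3, 0.0533 without inhibitor replicate 2 and 0.0726 without inhibitor replicate 1. For COL2A1 it was also 0.132 without uninjured replicate 2. The calls of ELN, COL14A1 and ITIH6 did not depend on any 1 of the remaining libraries of the groups compared.

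Cell division genes rose together. In the mitosis list 30 of 35 genes rose and none fell (85.7% called), with a median log2 fold change of 1.04. In the DNA replication list 24 of 40 rose and none fell (60% called), with a median of 0.92. Of all genes 22% were called. ECT2, which positions the cytokinetic ring, was at 19.2, 24.7, 26.03, 25.1 and 14.7 CPM in the inhibitor libraries, against 25.5, 9.66 and 6.27 CPM in the uninjured libraries. Inhibitor replicates 1 to 4 and the library labelled uninjured replicate 1 lay above the other 3 libraries. The log2 fold change of ECT2 was 1.57 ± 0.24 (SE), adjusted p = 0.00135. HELLS, a chromatin remodeller of replicating cells, was at 70.8, 72.3, 73.9, 69.9 and 59.5 CPM with the inhibitor and 70.05, 42.3 and 28.1 CPM in uninjured limb, with a log2 fold change of 1.02 ± 0.16 (SE), adjusted p = 0.0015. MCM4, a subunit of the replicative helicase, was at 66.9, 91.5, 90.6, 89.3 and 71.995 CPM with the inhibitor and 81.4, 53.2 and 37.2 CPM in uninjured limb, with a log2 fold change of 0.90 ± 0.21 (SE), adjusted p = 0.00978. MKI67, the standard proliferation marker, did not pass the test and was at 298, 347, 353, 357 and 269.7 CPM in the inhibitor libraries, against 354, 295 and 219.5 CPM in the uninjured libraries, with a log2 fold change of 0.39 ± 0.18 (SE), adjusted p = 0.123. In HELLS the library labelled inhibitor replicate 5 was the lowest of its group, and in MKI67 inhibitor replicate 1 lay next to uninjured replicate 2.

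Ribosome assembly and ribosome subunits moved in opposite directions. In the list of ribosome biogenesis genes 17 of 26 rose and 2 fell (73.1% called), with a median of 0.60. UTP20, a component of the small-subunit processome, was at 17.8, 22.03, 22.7, 20.8 and 16.1 CPM in the inhibitor libraries, against 21.1, 12.6 and 11.2 CPM in the uninjured libraries, with a log2 fold change of 0.81 ± 0.12 (SE), adjusted p = 0.00131. Of 35 ribosomal protein genes, 34 fell and none rose (97.1% called, against 22% of all genes), with a median of −0.61. RPS3A, a small-subunit protein, was at 1468, 1447, 1570.3, 1386 and 2013 CPM with the inhibitor and 1384, 2033 and 2739.6 CPM in uninjured limb, with a log2 fold change of −0.70 ± 0.13 (SE), adjusted p = 0.00298. The library labelled uninjured replicate 1 had the lowest RPS3A level of the 8 and uninjured replicate 3 the highest. Uninjured replicate 3 carried much of these list counts. Without it 1 mitosis gene, 1 DNA replication gene and 7 ribosome biogenesis genes rose and no ribosomal protein gene fell, and with only the groups compared the counts were 7, 6 and 5 higher and 0 lower. As labelled, the log2 fold changes were 0.67 for ECT2, 0.57 for HELLS, 0.52 for MCM4, 0.17 for MKI67, 0.41 for UTP20 and −0.38 for RPS3A, with adjusted p of 0.506 to 0.693. Leaving out uninjured replicate 3 ended calls, with an adjusted p of 0.149 for MCM4 and 0.0808 for RPS3A. The calls of ECT2, HELLS and UTP20 did not depend on any 1 of the remaining libraries of the groups compared.

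**Figure D3:**
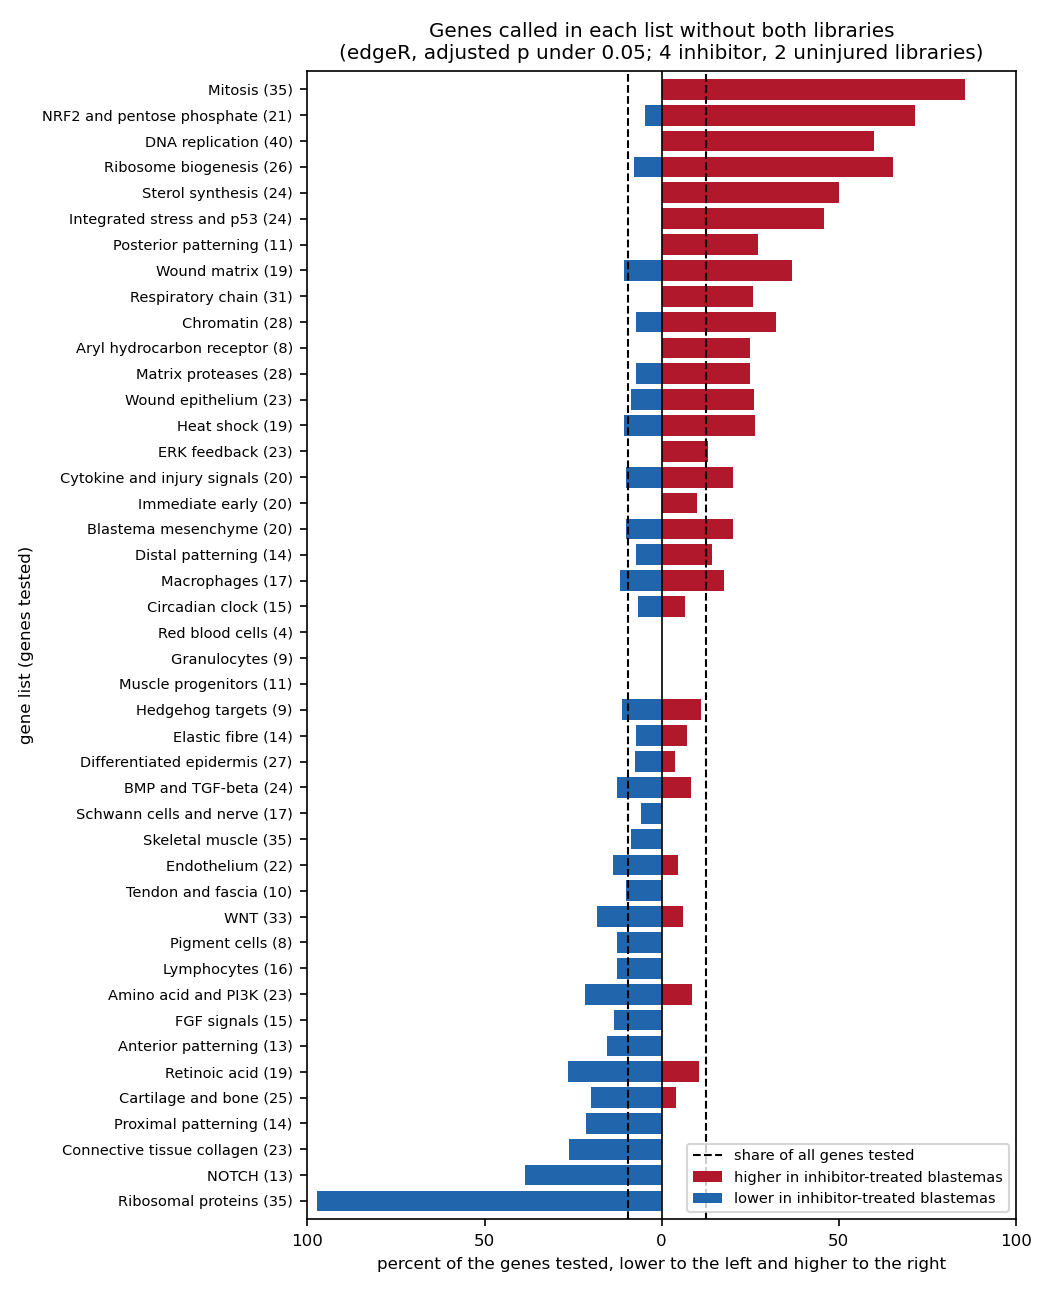
Share of the genes tested in each of 44 lists that was called higher (red, to the right) or lower (blue, to the left) in inhibitor-treated blastemas without both libraries, in percent. Dashed lines mark the share of all genes tested, 12.4% higher and 9.59% lower; mitosis lies far to the right and ribosomal proteins far to the left, and both counts fall to 1 and 0 without uninjured replicate 3.

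Some genes of limb progenitors and posterior patterning were higher. PRRX1, a transcription factor of limb mesenchyme and blastema cells, was at 5.27, 7.08, 3.90, 21.2 and 1.003 CPM in the inhibitor libraries, against 6.91, 1.29 and 2.02 CPM in the uninjured libraries. Inhibitor replicate 4 was the highest and the library labelled inhibitor replicate 5 the lowest of all 8. The log2 fold change of PRRX1 was 2.51 ± 0.73 (SE), adjusted p = 0.0272. HMGA2, a chromatin protein of embryonic and progenitor cells, was at 54.8, 62.6, 66.4, 39.02 and 35.5 CPM with the inhibitor and 41.1, 24.9 and 15.4 CPM in uninjured limb, with a log2 fold change of 1.47 ± 0.34 (SE), adjusted p = 0.00972. In the blastema mesenchyme list 4 of 20 rose (SALL1, SALL4, PRRX1 and HMGA2) and 2 fell (SNAI2 and OSR1), with a median of 0.70. That was 30% called, against 22% of all genes. With uninjured replicate 3 gone, none of the list rose and 1 fell, and without uninjured replicate 2 the counts were 2 and 2. HOXD11, a posterior and distal limb patterning gene, was at 3.93, 5.50, 4.17, 23.97 and 0.283 CPM with the inhibitor and 8.91, 1.06 and 1.83 CPM in uninjured limb, with a log2 fold change of 2.71 ± 0.81 (SE), adjusted p = 0.0299. Of 11 posterior patterning genes 3 rose, SALL1, HOXD10 and HOXD11, and none fell (27.3% called), with a median of 2.25. None of the 3 was called without uninjured replicate 3. SHH, the posterior signal itself, was near its detection limit, at 0.0234, 0.0632, 0, 1.25 and 0.206 CPM in the inhibitor libraries, against 0, 0.0494 and 1.06 CPM in the uninjured libraries, and no fold is given.

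The proximal limb list as a whole was not lower, but its gene MEIS1 and the Hox cluster gene HOXC5 were. MEIS1, a homeobox gene that marks the upper arm, was at 31.97, 25.6, 24.5, 31.98 and 52.5 CPM in the inhibitor libraries, against 34.7, 52.4 and 43.9 CPM in the uninjured libraries, with a log2 fold change of −0.76 ± 0.16 (SE), adjusted p = 0.00648. HOXC5 was at 2.18, 2.72, 2.69, 1.29 and 14.99 CPM with the inhibitor and 3.30, 12.5 and 6.30 CPM in uninjured limb, with a log2 fold change of −2.08 ± 0.35 (SE), adjusted p = 0.00215. In HOXC5 the library labelled inhibitor replicate 5 was the highest of the 8. Of 14 proximal patterning genes 3 fell (MEIS1, IRX3 and PBX3) and none rose. These were 21.4% of the list, against 22% of all genes called in either direction. Of the 14 genes, 10 had a positive log2 fold change, and the median was 0.45. Of 14 distal genes 2 rose and 1 fell, again 21.4%. Without uninjured replicate 3, 1 proximal gene fell and no distal gene was called, and without uninjured replicate 2 no gene of either list was called. In MEIS1 the library labelled uninjured replicate 1 was the lowest of its group. The labels do not say from which level along the forelimb the uninjured tissue was taken. Over all 8 libraries the log2 fold changes were 1.17 for PRRX1, 0.93 for HMGA2, 0.94 for HOXD11, −0.39 for MEIS1 and −0.63 for HOXC5, with adjusted p of 0.506 to 0.694. Some calls were lost without uninjured replicate 3, where the adjusted p was 0.136 for PRRX1, 0.14 for HMGA2 and 0.139 for HOXD11. For PRRX1 it was also 0.141 without uninjured replicate 2. For HOXD11 it was also 0.152 without uninjured replicate 2. For MEIS1 it was 0.0588 without uninjured replicate 2. The call of HOXC5 did not depend on any 1 of the remaining libraries of the groups compared.

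No gene of the ERK feedback list was called lower than in uninjured limb, against 9.59% of all genes, and 8 of 23 had a negative log2 fold change. In the list of ERK feedback genes 3 of 23 rose (13.0%), near the 12.4% of all genes called higher. They were RGS2 at 1.97, EPHA2 at 1.59 and ETV4 at 1.07 on the log2 scale, and the median of the list was 0.09. Without uninjured replicate 2 or uninjured replicate 3, 1 of the 23 rose, with only the groups compared none, and by DESeq2 6. ETV4, an ETS factor induced by FGF and ERK in limb buds, was at 16.4, 18.1, 15.4, 30.9 and 7.77 CPM in the inhibitor libraries, against 26.3, 7.19 and 12.1 CPM in the uninjured libraries, with a log2 fold change of 1.07 ± 0.35 (SE), adjusted p = 0.0427. SPRY4, a Sprouty inhibitor of receptor tyrosine kinase signalling, was at 3.93, 2.72, 4.90, 7.57 and 3.14 CPM with the inhibitor and 3.40, 2.60 and 6.55 CPM in uninjured limb, with a log2 fold change of 0.08 ± 0.38 (SE), adjusted p = 0.91. The SPRY4 levels of the groups overlapped and the change was within its error. PHLDA1, another gene that ERK induces, was at 7.26, 15.8, 16.6, 26.2 and 11.2 CPM with the inhibitor and 11.7, 21.6 and 36.2 CPM in uninjured limb, with a log2 fold change of −0.80 ± 0.40 (SE), adjusted p = 0.17. No immediate early gene was called lower either, and the median was 0.71. Of 20 immediate early genes 2 rose, JUNB and JUN, which is 10% against the 12.4% of all genes. The 2 became 6 with scaling by total counts, 7 by DESeq2 and 0 without uninjured replicate 3. JUNB was at 428, 187, 426, 258 and 360.5 CPM in the inhibitor libraries, against 213, 92.3 and 80.9 CPM in the uninjured libraries, with a log2 fold change of 1.91 ± 0.39 (SE), adjusted p = 0.005. FOS was uneven within the inhibitor group, at 217, 9.09, 158, 89.7 and 135 CPM with the inhibitor and 33.05, 10.7 and 16.3 CPM in uninjured limb, with a log2 fold change of 3.14 ± 1.10 (SE), adjusted p = 0.0583. FOS was called without inhibitor replicate 2, at an adjusted p of 0.0172, with scaling by total counts, at 0.0471, and by DESeq2, at 0.00238. With the labels as given, the log2 fold changes were 0.22 for ETV4, 0.09 for SPRY4, −0.59 for PHLDA1, 1.37 for JUNB and 2.61 for FOS, with adjusted p of 0.506 to 0.925. The fit without uninjured replicate 3 gave an adjusted p of 0.0891 for ETV4 and 0.0815 for JUNB. For ETV4 it was also 0.249 without uninjured replicate 2, 0.0852 without inhibitor replicate 4 and 0.057 without inhibitor replicate 2.

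Genes of the NOTCH pathway, and single genes of other signalling lists, were lower. FGFR2, the receptor through which epidermis and mesenchyme exchange FGF signals, was at 72.5, 59.1, 63.6, 51.5 and 142 CPM in the inhibitor libraries, against 70.1, 111 and 165 CPM in the uninjured libraries, with a log2 fold change of −1.16 ± 0.18 (SE), adjusted p = 0.00161. JAG2, a NOTCH ligand, was at 29.3, 36.1, 33.9, 32.01 and 77.7 CPM with the inhibitor and 38.3, 63.3 and 88.8 CPM in uninjured limb, with a log2 fold change of −1.21 ± 0.18 (SE), adjusted p = 0.00129. SP5, a direct target of WNT and beta-catenin signalling, was at 0.141, 0.316, 0.217, 0.464 and 1.57 CPM with the inhibitor and 0.0723, 1.83 and 2.13 CPM in uninjured limb, with a log2 fold change of −2.79 ± 0.54 (SE), adjusted p = 0.00407. In all 3 genes the library labelled inhibitor replicate 5 was the highest of its group. Of 15 FGF signal genes 2 fell (FGFR2 and FGF1) and none rose, with a median of −0.39. That was 13.3% called, below the 22% of all genes called in either direction and above the 9.59% called lower. Of 13 NOTCH genes 5 fell and none rose (38.5%), with a median of −0.71. Of 33 WNT genes 6 fell and 2 rose, with a median of −0.20, and this 24.2% was near the share of all genes. Of 19 retinoic acid genes 5 fell and 2 rose (36.8%), with a median of −0.67. When uninjured replicate 3 was left out, the FGF, NOTCH, WNT and retinoic acid lists had 1, 1, 1 and 0 genes lower. In the list of amino acid and PI3K genes 5 of 23 fell and 2 rose, SLC7A5 at 2.51 and FOXO1 at 1.06 on the log2 scale, with a median of −0.23, and without uninjured replicate 3 the counts were 2 lower and 1 higher. Of this list 30.4% was called, against 22% of all genes. PIK3R2, a regulatory subunit of PI3-kinase, was at 64.5, 57.9, 56.3, 75.4 and 102 CPM in the inhibitor libraries, against 76.3, 151 and 195 CPM in the uninjured libraries. Its log2 fold change was −1.45 ± 0.18 (SE), adjusted p = 0.000552. TAT, which degrades tyrosine, was at 2.83, 6.11, 7.12, 6.69 and 17.4 CPM with the inhibitor and 5.68, 20.6 and 46.5 CPM in uninjured limb, with a log2 fold change of −2.55 ± 0.40 (SE), adjusted p = 0.00153.

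The dynein adaptor gene BICDL1 and the glucocorticoid-responsive gene FAM107A were among the genes with the lowest fold changes. BICDL1 was at 6.07, 8.64, 7.01, 13.6 and 56.2 CPM in the inhibitor libraries, against 9.01, 74.4 and 83.7 CPM in the uninjured libraries, with a log2 fold change of −3.16 ± 0.43 (SE), adjusted p = 0.000771. FAM107A was at 6.53, 12.7, 6.66, 9.82 and 77.8 CPM with the inhibitor and 9.83, 83.3 and 74.96 CPM in uninjured limb, with a log2 fold change of −3.15 ± 0.42 (SE), adjusted p = 0.00074. Both were high in uninjured replicates 2 and 3 and in the library labelled inhibitor replicate 5, and low in the other 5 libraries. As labelled, the log2 fold changes were −0.57 for FGFR2, −0.60 for JAG2, −1.31 for SP5, −0.98 for PIK3R2, −1.60 for TAT, −1.61 for BICDL1 and −1.31 for FAM107A, with adjusted p of 0.506 to 0.556. The calls of FGFR2, JAG2, SP5, PIK3R2, TAT, BICDL1 and FAM107A did not depend on any 1 of the remaining libraries of the groups compared.

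Enzymes of detoxification and of the pentose phosphate pathway, which supplies NADPH and ribose, were higher. In the list of NRF2 and pentose phosphate genes 15 of 21 rose and 1 fell, with a median of 0.86. That was 76.2% called, against 22% of all genes. TKT, transketolase, was at 942, 1706, 954, 602 and 565 CPM in the inhibitor libraries, against 808, 398 and 271 CPM in the uninjured libraries, with a log2 fold change of 1.65 ± 0.43 (SE), adjusted p = 0.0158. OSGIN1, a target of the oxidative stress factor NRF2, was at 16.3, 12.4, 6.01, 8.21 and 0.540 CPM with the inhibitor and 7.78, 0.321 and 1.15 CPM in uninjured limb, with a log2 fold change of 3.88 ± 0.68 (SE), adjusted p = 0.00251. In TKT and OSGIN1 the library labelled uninjured replicate 1 lay within the range of inhibitor replicates 1 to 4. CYP1A1, the cytochrome that the aryl hydrocarbon receptor induces, was uneven within the group. It was at 3.37, 11.6, 58.2, 117 and 0.257 CPM in the inhibitor libraries, against 3.64, 0.346 and 0.709 CPM in the uninjured libraries, with a log2 fold change of 6.51 ± 1.68 (SE), adjusted p = 0.0158. Of 8 aryl hydrocarbon receptor genes, CYP1A1 and NQO1 rose and none fell, and neither was called without uninjured replicate 3. The called genes were 25% of the aryl hydrocarbon receptor list, near the 22% of all genes. Over all 8 libraries the log2 fold changes were 0.95 for TKT, 1.49 for OSGIN1 and 4.60 for CYP1A1, with adjusted p of 0.506 to 0.553. In the absence of uninjured replicate 3 the adjusted p was 0.178 for TKT and 0.127 for CYP1A1. For CYP1A1 it was also 0.091 without uninjured replicate 2. The call of OSGIN1 did not depend on any 1 of the remaining libraries of the groups compared. With uninjured replicate 3 gone, 1 gene of the NRF2 list rose.

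Stress response genes rose as well, 11 of 24 in the list of integrated stress and p53 genes, with none lower and a median of 1.04. That was 45.8% called, against 22% of all genes. ADM2, a peptide hormone gene that ATF4 induces, was at 11.9, 11.4, 7.96, 6.67 and 1.36 CPM in the inhibitor libraries, against 19.8, 0.297 and 0.136 CPM in the uninjured libraries, with a log2 fold change of 5.42 ± 0.87 (SE), adjusted p = 0.00172. PSAT1, an enzyme of serine synthesis, was at 145, 235, 94.4, 147 and 44.02 CPM with the inhibitor and 332, 15.2 and 8.16 CPM in uninjured limb, with a log2 fold change of 3.72 ± 1.02 (SE), adjusted p = 0.0211. GADD45G, a stress-induced growth arrest gene, was at 49.3, 32.2, 47.3, 55.998 and 20.9 CPM with the inhibitor and 24.5, 5.09 and 9.52 CPM in uninjured limb, with a log2 fold change of 2.67 ± 0.49 (SE), adjusted p = 0.003. HSPA5, the chaperone of the endoplasmic reticulum, was at 1271, 742, 591, 567 and 248 CPM in the inhibitor libraries, against 614, 236 and 191 CPM in the uninjured libraries, with a log2 fold change of 1.89 ± 0.37 (SE), adjusted p = 0.00421. HSPD1, the mitochondrial chaperonin, was at 320.2, 577, 464, 429.96 and 179.7 CPM with the inhibitor and 492, 143 and 77.6 CPM in uninjured limb, with a log2 fold change of 2.02 ± 0.28 (SE), adjusted p = 0.000778. In all 5 genes the library labelled inhibitor replicate 5 was the lowest of its group and the library labelled uninjured replicate 1 the highest of its group. The heat shock list as a whole was mixed, with 5 of 19 higher, 2 lower (36.8% called) and a median of −0.06.

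Sterol synthesis genes rose in 12 of 24 cases with none lower and a median of 1.13. That was 50% called, against 22% of all genes. MSMO1, a sterol oxidase, was at 9.51, 52.6, 55.7, 17.3 and 5.43 CPM in the inhibitor libraries, against 18.8, 4.40 and 2.67 CPM in the uninjured libraries, with a log2 fold change of 3.25 ± 0.67 (SE), adjusted p = 0.00557. STARD4, a cholesterol carrier, was at 4.03, 5.38, 2.71, 5.11 and 0.926 CPM with the inhibitor and 2.48, 0.717 and 0.737 CPM in uninjured limb, with a log2 fold change of 2.56 ± 0.40 (SE), adjusted p = 0.0015. In the respiratory chain list 8 of 31 rose and none fell, with a median of 0.08. These were 25.8% of the list, near the 22% of all genes called. In both sterol genes the library labelled inhibitor replicate 5 was the lowest of its group. SDHA, the flavoprotein of succinate dehydrogenase, was at 400.1, 314, 433, 313 and 164 CPM with the inhibitor and 253, 177 and 173 CPM in uninjured limb, with a log2 fold change of 1.06 ± 0.16 (SE), adjusted p = 0.00148. As labelled, the log2 fold changes of the stress, sterol and respiratory genes were 0.23 for ADM2, 0.17 for PSAT1, 1.66 for GADD45G, 0.98 for HSPA5, 0.73 for HSPD1, 1.70 for MSMO1, 1.47 for STARD4 and 0.69 for SDHA, with adjusted p of 0.506 to 0.962. Leaving out uninjured replicate 3 ended calls, with an adjusted p of 0.191 for PSAT1, 0.0805 for HSPA5 and 0.0934 for MSMO1. For PSAT1 it was also 0.0654 without uninjured replicate 2. The calls of ADM2, GADD45G, HSPD1, STARD4 and SDHA did not depend on any 1 of the remaining libraries of the groups compared. Without uninjured replicate 3, 4 stress genes, 1 sterol gene and 3 respiratory chain genes rose, and without uninjured replicate 2 the counts were 7, 6 and 5.

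Transcripts of differentiated muscle were lower in most inhibitor libraries than in uninjured replicates 2 and 3, but few passed the test. The median over 35 muscle genes was −2.18, and 3 of them fell, ENO3, PYGM and PGAM2, but none with only the groups compared. The 3 were 8.57% of the list, below the 9.59% of all genes called lower. CKM, the muscle creatine kinase, was at 81.6, 490.04, 2216, 159 and 539 CPM in the inhibitor libraries, against 111, 2654 and 5454 CPM in the uninjured libraries, with a log2 fold change of −2.45 ± 1.97 (SE), adjusted p = 0.398. Inhibitor replicate 3 came close to uninjured replicate 2, and the library labelled uninjured replicate 1 was among the lowest. ENO3, the muscle enolase, was at 59.7, 125, 303, 75.9 and 201 CPM with the inhibitor and 67.2, 542 and 1155 CPM in uninjured limb, with a log2 fold change of −2.58 ± 0.65 (SE), adjusted p = 0.0145. No gene of the muscle progenitor list was called. How far the muscle share of each library bears on other genes that were lower was not tested.

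Markers of other cell types were called in both directions. Of 17 macrophage genes 5 were called (29.4%, against 22% of all genes). Of these 3 rose, GPNMB, APOE and CTSB, and 2 fell, FCER1G and CD74, with a median of −0.18. C1QA, a complement gene of tissue macrophages, was at 26.3, 17.5, 24.1, 44.9 and 29.004 CPM in the inhibitor libraries, against 37.6, 51.6 and 25.3 CPM in the uninjured libraries, with a log2 fold change of −0.45 ± 0.37 (SE), adjusted p = 0.411. CD74, the invariant chain of antigen-presenting cells, was at 194, 79.1, 133, 103 and 214 CPM with the inhibitor and 131, 966 and 555 CPM in uninjured limb, with a log2 fold change of −2.58 ± 0.64 (SE), adjusted p = 0.0134. When uninjured replicate 3 was left out, 1 macrophage gene rose and 1 fell. Of 16 lymphocyte genes 2 fell (12.5%), and of 22 endothelial genes 1 rose and 3 fell (18.2%). Both shares were below the 22% of all genes called in either direction. No granulocyte or red blood cell gene was called. As labelled, the log2 fold changes of these genes were −1.97 for CKM, −1.94 for ENO3, −0.43 for C1QA and −1.93 for CD74, with adjusted p of 0.506 to 0.643. Some calls were lost without uninjured replicate 3, where the adjusted p was 0.177 for ENO3 and 0.054 for CD74. For CD74 it was also 0.0806 without uninjured replicate 2.

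Whether the inhibitor itself went with a difference was asked by setting the same libraries against posterior blastemas grown without it. This comparison also tests whether the change from uninjured limb differed between the 2 kinds of blastema, since both changes share the uninjured libraries. As labelled, 1576 of 19398 genes (8.12%) were called, 802 higher (4.13%) and 774 lower (3.99%), with 127 called without posterior replicate 1 and 2381 without inhibitor replicate 4. Without the library labelled inhibitor replicate 5, and with the uninjured spread from replicates 2 and 3, the count was 2575 of 19779 (13%), 1404 higher (7.1%) and 1171 lower (5.92%). It was 1215 without posterior replicate 1 and 3501 without inhibitor replicate 4, the ends of its range when 1 more library was left out. The inhibitor libraries enter both comparisons, so the fold changes against uninjured limb and against posterior blastemas are not independent.

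Detoxification and pentose phosphate enzymes stood above both other groups. TKT was at 942, 1706, 954, 602 and 565 CPM in the inhibitor libraries, against 157, 232, 184 and 306 CPM in the posterior blastemas, with a log2 fold change of 2.25 ± 0.34 (SE), adjusted p = 0.00277. PIR, an iron-binding NRF2 target, was at 119.9, 107, 134, 81.7 and 60.5 CPM with the inhibitor, 28.7, 20.4, 19.2 and 29.9 CPM in the posterior blastemas and 81.3, 61.02 and 57.5 CPM in uninjured limb. Against posterior blastemas its log2 fold change was 2.16 ± 0.21 (SE), adjusted p = 0.00016, and against uninjured limb 0.90 ± 0.26 (SE), adjusted p = 0.0236. Its call against uninjured limb was lost without inhibitor replicate 3, uninjured replicate 2 or uninjured replicate 3, with an adjusted p of 0.0521, 0.0736 and 0.179. OSGIN1 was at 1.72, 2.12, 1.36 and 0.894 CPM in the posterior blastemas and its log2 fold change against them was 2.80 ± 0.48 (SE), adjusted p = 0.00537. CYP1A1 was at 0.105, 0.109, 0.561 and 0 CPM in the posterior blastemas, with a log2 fold change of 7.93 ± 1.33 (SE), adjusted p = 0.00524. In the NRF2 and pentose phosphate list 12 of 21 genes rose and none fell against posterior blastemas, where 7.1% of all genes were called higher. The count of higher genes was 11 to 13 when any 1 further library was left out.

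Genes of the respiratory chain, stress and sterol lists were also higher. SDHA was at 128, 133, 157 and 175 CPM in the posterior blastemas, with a log2 fold change against them of 1.29 ± 0.13 (SE), adjusted p = 0.000204. ADM2 was at 0.608, 2.56, 1.64 and 0.916 CPM in the posterior blastemas, with a log2 fold change of 2.72 ± 0.55 (SE), adjusted p = 0.00998. Of 24 sterol synthesis genes 14 rose, of 31 respiratory chain genes 15 rose and of 24 integrated stress and p53 genes 8 rose, and none of the 3 lists had a lower gene. Of 27 genes of differentiated epidermis 9 rose and none fell, where the comparison with uninjured limb had 1 higher and 2 lower. Against posterior blastemas 7.1% of all genes were called higher. With 1 more library left out, 10 to 19 respiratory chain genes, 10 to 19 sterol genes, 4 to 10 stress genes and 4 to 13 epidermis genes rose. As labelled, with the library labelled inhibitor replicate 5 kept, the log2 fold changes against posterior blastemas were 2.12 for TKT with an adjusted p of 0.0123, 2.04 for PIR with an adjusted p of 0.00297, 2.51 for OSGIN1 with an adjusted p of 0.0825, 7.61 for CYP1A1 with an adjusted p of 0.0195, 1.13 for SDHA with an adjusted p of 0.013 and 2.46 for ADM2 with an adjusted p of 0.172. The calls of TKT, PIR, OSGIN1, CYP1A1, SDHA and ADM2 did not depend on any 1 of the remaining libraries of the groups compared.

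**Figure D4:**
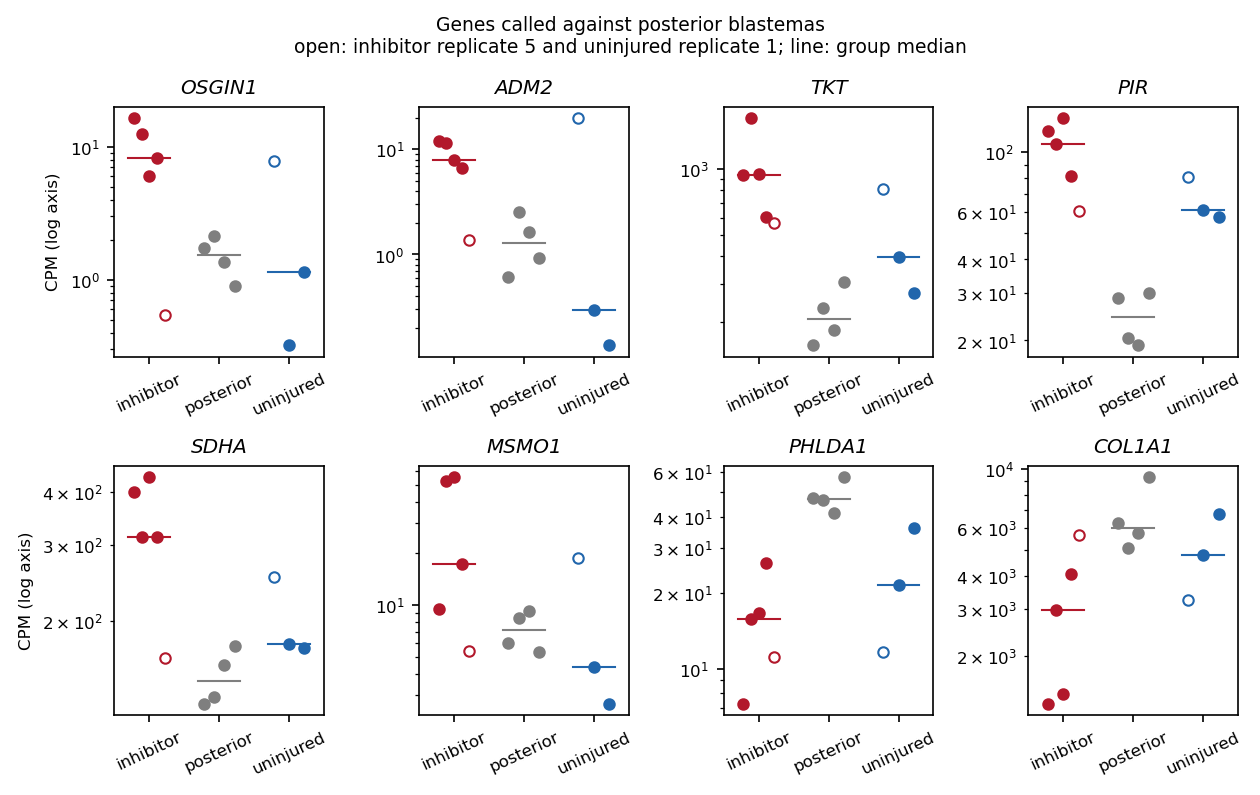
CPM on a log axis of 8 genes called between inhibitor-treated and posterior blastemas, in every library of the inhibitor-treated blastemas (red), posterior blastemas (grey) and uninjured limb (blue), with group medians as lines and the 2 libraries that stood apart as open circles. In OSGIN1, ADM2, TKT, PIR and SDHA inhibitor replicates 1 to 4 lie above every posterior blastema.

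Without both libraries, the matrix gene TNC and the vitamin D enzyme gene CYP27B1 lay between the groups, and SERPINH1 and COL1A1 lay below both. TNC was at 1857, 1477, 1143 and 1372 CPM in the posterior blastemas, and its log2 fold change in the inhibitor libraries against them was −1.09 ± 0.29 (SE), adjusted p = 0.029. CYP27B1 was at 439, 302, 246 and 235 CPM in the posterior blastemas, with a log2 fold change of −2.03 ± 0.59 (SE), adjusted p = 0.0406. Both genes were thus above uninjured limb and below posterior blastemas. SERPINH1 was at 243, 242, 206 and 305 CPM in the posterior blastemas, with a log2 fold change of −1.40 ± 0.22 (SE), adjusted p = 0.00353, below both groups. COL1A1 was at 6257, 5079.7, 5760.1 and 9328 CPM in the posterior blastemas, with a log2 fold change of −1.44 ± 0.34 (SE), adjusted p = 0.0188. ADAMTS9, a protease of proteoglycans, was at 1.62, 1.88, 1.43, 3.23 and 1.70 CPM with the inhibitor, 8.20, 7.86, 8.63 and 10.3 CPM in the posterior blastemas and 2.87, 3.66 and 3.16 CPM in uninjured limb, with a log2 fold change of −2.11 ± 0.26 (SE), adjusted p = 0.000867 against the posterior blastemas and −0.74 ± 0.30 (SE), adjusted p = 0.0938 against uninjured limb, where it was called without inhibitor replicate 4 at an adjusted p of 0.012. Against posterior blastemas 11 of 23 connective tissue collagens, 11 of 28 matrix proteases and 8 of 19 wound matrix genes fell. None of these lists had a higher gene, and 5.92% of all genes were called lower. As labelled, the log2 fold changes against posterior blastemas were −1.35 for TNC with an adjusted p of 0.27, −2.35 for CYP27B1 with an adjusted p of 0.228, −1.11 for SERPINH1 with an adjusted p of 0.0264, −1.09 for COL1A1 with an adjusted p of 0.0815 and −2.15 for ADAMTS9 with an adjusted p of 0.00159. The fit without posterior replicate 4 gave an adjusted p of 0.0518 for CYP27B1. For CYP27B1 it was also 0.0593 without posterior replicate 3, 0.0732 without posterior replicate 2, 0.0996 without posterior replicate 1, 0.101 without inhibitor replicate 3, 0.105 without inhibitor replicate 2 and 0.0981 without inhibitor replicate 1. For TNC it was 0.0616 without posterior replicate 2, 0.0808 without posterior replicate 1, 0.0763 without inhibitor replicate 3, 0.0803 without inhibitor replicate 2 and 0.0682 without inhibitor replicate 1. The calls of SERPINH1, COL1A1 and ADAMTS9 against posterior blastemas did not depend on any 1 of the remaining libraries of the groups compared. With only the groups compared, edgeR's adjusted p was 0.0585 for TNC, 0.0629 for CYP27B1 and 0.058 for COL1A1. SERPINH1 and ADAMTS9 stayed called there, at 0.00705 and 0.01. Against uninjured limb the call of COL1A1 was lost without inhibitor replicate 1, 2 or 3. With 1 more library left out, 2 to 13 proteases fell (lowest without inhibitor replicate 3), 6 to 16 collagens (lowest without inhibitor replicate 1 or 3) and 4 to 12 wound matrix genes (lowest without inhibitor replicate 1 or 2), and all 3 were highest without inhibitor replicate 4.

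How many ERK feedback genes were lower than in posterior blastemas depended on 1 library and on the tool. Of 23 genes 3 fell, DUSP7, PHLDA1 and EPHA4, and none rose, but 9 fell without inhibitor replicate 4 and 10 by DESeq2. Of all genes, 5.92% were called lower and 7.1% higher in this comparison. PHLDA1 was at 47.5, 46.6, 41.5 and 57.6 CPM in the posterior blastemas, with a log2 fold change of −1.56 ± 0.34 (SE), adjusted p = 0.0143. ETV4 was at 40.9, 35.2, 34.3 and 24.2 CPM in the posterior blastemas and SPRY4 at 8.16, 10.01, 5.85 and 8.79 CPM, and their log2 fold changes, −0.74 ± 0.27 (SE), adjusted p = 0.0866 for ETV4 and −0.79 ± 0.31 (SE), adjusted p = 0.107 for SPRY4, did not pass the test. Cell cycle lists moved little, with 2 of 35 mitosis genes and 2 of 40 DNA replication genes higher and none lower. Both shares were below the 7.1% of all genes called higher. No ribosomal protein gene was called. MKI67 was at 297, 306, 307 and 210.1 CPM in the posterior blastemas, with a log2 fold change of 0.27 ± 0.14 (SE), adjusted p = 0.226. Of 20 blastema mesenchyme genes 6 fell and none rose, with a median of −0.84, and of 11 posterior patterning genes 2 fell, with a median of −1.52. SALL4, higher than in uninjured limb, was lower here at −1.57, adjusted p = 0.0418 (as labelled −1.76, adjusted p = 0.146). With 1 more library left out, 1 to 8 and 0 to 9 genes of these 2 lists fell. Of 17 macrophage genes 4 fell, a share above 5.92%, MERTK and the complement genes C1QA, C1QB and C1QC. C1QA was at 88.2, 97.5, 55.8 and 56.3 CPM in the posterior blastemas, with a log2 fold change of −1.41 ± 0.31 (SE), adjusted p = 0.0146. ALDH1A3 was at 48.97, 74.2, 79.02 and 31.8 CPM in the posterior blastemas, with a log2 fold change of −2.48 ± 0.46 (SE), adjusted p = 0.00737. With the library labelled inhibitor replicate 5 kept, the log2 fold changes were −1.65 for PHLDA1 with an adjusted p of 0.0183, −0.92 for ETV4 with an adjusted p of 0.134, −0.88 for SPRY4 with an adjusted p of 0.075, 0.21 for MKI67 with an adjusted p of 0.424, −1.39 for C1QA with an adjusted p of 0.013 and −2.19 for ALDH1A3 with an adjusted p of 0.0135. The calls of PHLDA1, C1QA and ALDH1A3 did not depend on any 1 of the remaining libraries of the groups compared. The call of ETV4 and of SPRY4 appeared without inhibitor replicate 4, with an adjusted p of 0.0177 and 0.0245. With inhibitor replicate 4 kept, DESeq2 called ETV4, at an adjusted p of 0.0444, but not SPRY4, at 0.0599.

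**Figure D5:**
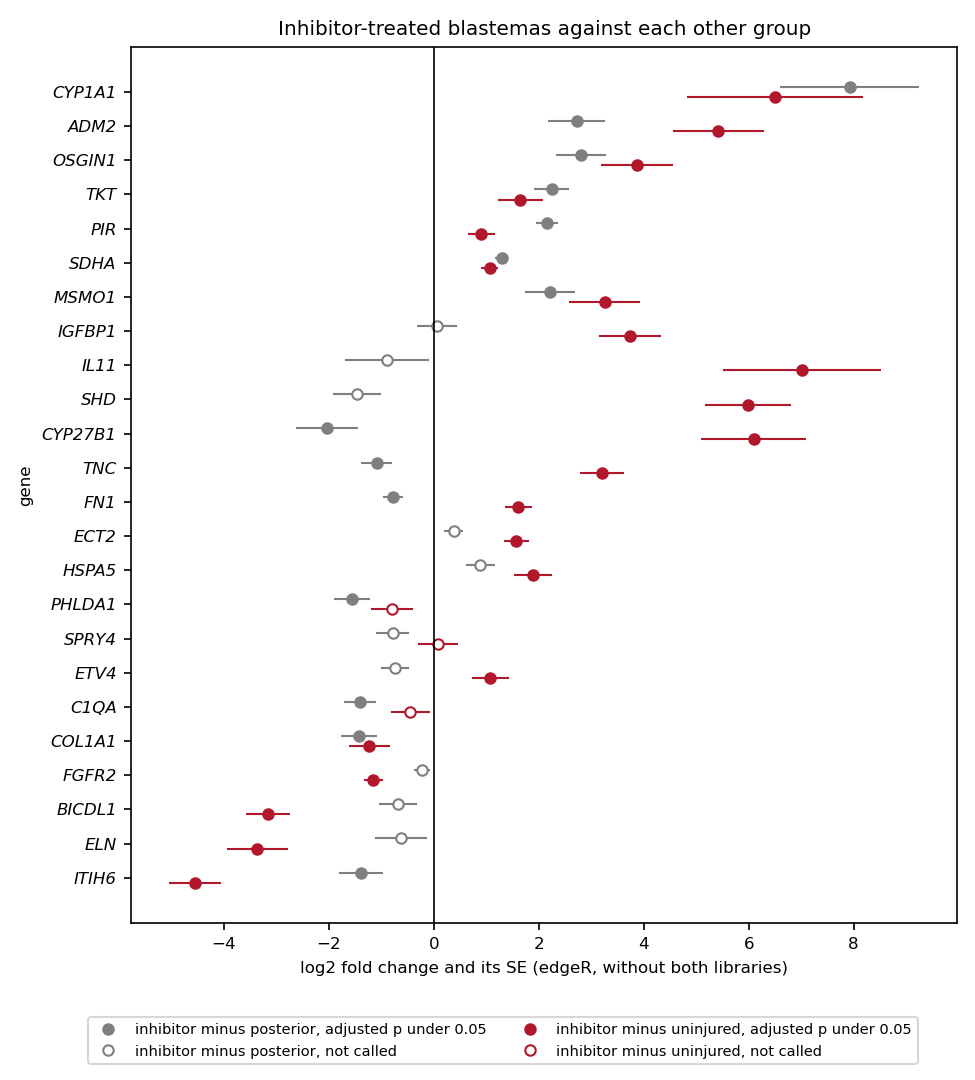
Log2 fold change with its SE of 24 genes in inhibitor-treated blastemas against posterior blastemas (grey) and against uninjured limb (red), without both libraries that stood apart; filled points have an adjusted p under 0.05. From CYP1A1 to MSMO1 both points lie right of 0, TNC, FN1 and CYP27B1 lie right of 0 against uninjured limb and left of 0 against posterior blastemas, and ELN and BICDL1 are called against uninjured limb but not against posterior blastemas.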

How the data were processed

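The deposited values are unnormalized counts of reads in each gene. The authors made them with Trimmomatic 0.39 and STAR 2.7.3a, per the submitters' processing notes; build and annotation were not given in the sources used here. The unstranded count column was used and the 4 totals of reads not counted in any gene were left out. Groups came from the labels. Counts of 17 libraries in 4 groups were filtered with filterByExpr, scaled with TMM and fitted in 1 model with the robust quasi-likelihood F test of edgeR 4.0.16 (R 4.3.3; Benjamini-Hochberg adjustment, threshold 0.05), and again with 15 libraries. The SE was derived from the F statistic and the log2 fold change, and thus depends on the p-value. CPM come from the 17-library fit. The common biological coefficient of variation was 0.446 (0.410 without both libraries). The tests were run on simulated counts with the same spread for every gene, smaller than in these data, and no library that stood apart. That check does not measure power or error in these data. No replicate pair was a repeat, with chi-square over degrees of freedom of 129 to 676.

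Of 122775 gene IDs, 67217 had an entry in a RefSeq table, which served for names alone. The 44 lists held 989 symbols, 862 of them in the files. The members and lists were chosen with earlier results of these data known. Named genes were the called genes with the 10 highest and 10 lowest log2 fold changes that had a symbol and a mean of at least 1 log2 CPM, up to 4 genes of each list by smallest p, and a hand-picked set of limb genes, of which the text gives a selection. Members of a list that were called are also named, and results of some genes are not reported here. Alternatives were RLE and total-count scaling, other filters, the replicate number as a block, only the groups compared, DESeq2 1.42.0, a minimum of 1.2-fold, another count column and leaving out each library. Plots were drawn with matplotlib 3.10.9 in Python 3.11.15.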

Additional observations from a re-analysis of the deposited data

Results flagged for a closer look

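Among 63 genes and 44 gene lists, 7 genes and 3 lists had 1 of the 5 inhibitor libraries far from the other 4 on the log2 scale. Chance flags about 1 in 20 groups, a rate that does not apply here, since many of the genes were chosen from fits without the library labelled inhibitor replicate 5, which had been singled out already. The library labelled inhibitor replicate 5 was that library in 6 of the genes. It was lowest for ADM2 (1.36 CPM), FN1 (217.8 CPM) and HELLS (59.5 CPM), and highest for ITIH6 (23.4 CPM), FAM107A (77.8 CPM) and JAG2 (77.7 CPM). It was also highest for the mean of the NOTCH list, at 0.44, and of the ribosomal protein list, at 0.27, in log2 CPM relative to the mean over the 8 libraries. FOS was lowest in inhibitor replicate 2, at 9.09 CPM. The elastic fibre list was lowest in inhibitor replicate 1, at −1.08.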

How the results depend on the processing

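As labelled, the count against uninjured limb was 0 by edgeR under each alternative but these. DESeq2 called 34 genes (16 higher, 18 lower), leaving out 1 library gave 0 to 1714 (0 to 1162 higher, 0 to 552 lower), and leaving out both libraries gave 4344 (2447 higher, 1897 lower). Against posterior blastemas the count of 1576 became 983 with only the groups compared, 2968 by DESeq2, 367 with a minimum of 1.2-fold, 2575 without both libraries and 127 to 2381 without 1 library. With the replicate number as a block it was 947, and against uninjured limb 0. Same-numbered libraries deviated from their group means with correlations of 0.31, −0.06 and 0.05 for numbers 1 to 3. The pair at 0.31 holds the library labelled uninjured replicate 1, so the check cannot settle whether numbers pair libraries. The labels do not say that they do, and the numbers were not taken as pairs. Without both libraries, the count against uninjured limb was 857 (452 higher, 405 lower) with only the groups compared, 2626 (1465 higher, 1161 lower) with a minimum of 1.2-fold, and 787 to 4330 (471 to 2451 higher, 316 to 1879 lower) with 1 more library left out. Against posterior blastemas it was then 1634 with only the groups compared, 4175 by DESeq2, 828 with a minimum of 1.2-fold and 1215 to 3501 with 1 more library left out. Other scalings, filters and the other count column kept each count within 1.5 times. As labelled, some log2 fold changes crossed 0 when 1 library was left out, with ranges of −0.23 to 6.70 for IL11, −0.059 to 5.77 for CYP27B1, −0.26 to 5.67 for SHD, −0.34 to 5.16 for ADM2, −0.36 to 3.51 for PSAT1, −0.30 to 2.93 for TNC, −0.19 to 1.75 for COL2A1, −0.18 to 2.39 for HOXD11, −0.11 to 0.88 for ETV4 and −0.19 to 0.58 for SPRY4. Without both libraries SPRY4 ran from −0.43 to 0.88 and C1QA from −0.88 to 0.18. The cause was not tested. The alternatives to the fit without both libraries were chosen after seeing the data. An arm left with 1 library was assumed to vary like the other groups.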

Other observations

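PEA15, which encodes a cytoplasmic protein that binds ERK, was singled out after its values were seen, from the genes that DESeq2 called as labelled. It was at 0.211, 20.9, 21.2, 24.2 and 15.3 CPM in the inhibitor libraries, against 0.145, 0.371 and 0.355 CPM in the uninjured libraries. The 4 inhibitor libraries other than replicate 1 were high, the library labelled inhibitor replicate 5 among them, and inhibitor replicate 1 lay with the 3 uninjured libraries. Its log2 fold change as labelled was 5.81 by DESeq2, with an adjusted p of 0.00323, and 5.81 ± 1.68 (SE), adjusted p = 0.506 by edgeR. PEA15 levels in the posterior blastemas are not reported here, so no link to the inhibitor can be read from these values.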
